A study of Mus musculus with 20 samples.

Results

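Described here are 150 probes of mouse footpad skin arrays whose footpad signal at postnatal day 1 (P1) lay within 1 log2 unit of late gestation (E17.5), at day 5 (P5) within 1 of P1, and stood higher in adults, in wild-type and Tabby mice alike. They were chosen from the measured values themselves, out of 42006 probes. On the scale used for the choice, each array's Cy3 signal was taken as log2 and set relative to that array's median, spots of a probe were averaged, and the 4 arrays of a stage were averaged. A probe was kept where all 4 adult arrays were well above background by the scanner software, where P1 lay within 1 of E17.5 and P5 within 1 of P1, where Tabby lay within 0.5 of wild type at P5 and in adults, and where adults exceeded P5 by at least 1. These conditions were met by 2216 probes, and the 150 with the largest difference between adult and P5, called the step below, are the members. The step, the closeness of the stages before it and the closeness of the genotypes at P5 and in adults are therefore properties of the choice and carry no test.

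Footpad skin of the mouse is the site of its eccrine sweat glands, which are laid down as epidermal buds before birth and form their coiled secretory part in the first days of life. Tabby mice carry a mutation in the X-linked gene for ectodysplasin, a ligand that the buds of hair, teeth and sweat glands need, and their footpads form no sweat glands. From birth to adulthood the same skin also thickens and keratinizes, and its dermis, vessels, nerves and resident immune cells mature.

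Wild-type (WT) and Tabby mice, both labelled as strain C57BL6/J, gave footpad skin in late gestation (E17.5), in the first week of life (P1, P3 and P5, in days after birth) and as adults (P56). Each of the 10 groups had 2 biological replicates, on 20 two-colour Agilent arrays. Footpad RNA carried the dye Cy3 on every array, and a common reference RNA, pooled from mouse cell lines and mixed with RNA of embryonic stem cells, carried Cy5. The study's title concerns ion channels of eccrine glands, while the members are the probes without a large genotype difference at P5 and in adults. How many animals gave a sample, and of which sex, is not given in the sources used here.

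Each array held 42034 probe spots, and 27195 to 30269 of the 42006 probes passed the scanner's detection flag in Cy3. Each stage filled 1 slide, WT in its first 2 positions and Tabby in its last 2, and the adult and E17.5 slides were each scanned on a separate day. An effect of the slide on a stage, or of the position on a genotype, cannot be told apart from biology. In whole skin, fewer cells of a type and less RNA per cell cannot be told apart either. The array files give each probe a number and a sequence but no gene name, so members are given by number and sequence, and markers of skin cell types were not checked.

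All probes were 60 bases long, and those that carry the findings are printed as designed. The first 4 had the largest steps among members that were well above background on 0 of the 16 arrays before adulthood.
Z00023856-1: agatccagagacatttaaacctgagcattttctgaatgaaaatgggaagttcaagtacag
Z00033477-1: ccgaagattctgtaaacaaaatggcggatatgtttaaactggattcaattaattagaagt
Z00056349-1: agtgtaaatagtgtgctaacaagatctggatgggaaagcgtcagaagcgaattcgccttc
Z00057299-1: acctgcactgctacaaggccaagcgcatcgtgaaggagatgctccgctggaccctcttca

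The next 4 had the largest steps among members well above background on all 16 of those arrays.
Z00025474-1: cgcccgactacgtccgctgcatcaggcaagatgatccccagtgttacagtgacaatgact
Z00025647-1: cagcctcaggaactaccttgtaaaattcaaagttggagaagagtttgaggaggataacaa
Z00074790-1: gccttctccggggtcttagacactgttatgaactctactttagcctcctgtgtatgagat
Z00022451-1: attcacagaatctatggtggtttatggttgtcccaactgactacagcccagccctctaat

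A pair of members was drawn from overlapping sequence, and capitals mark the 34 bases they share.
Z00043331-1: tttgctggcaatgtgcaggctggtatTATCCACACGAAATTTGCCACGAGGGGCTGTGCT
Z00075743-1: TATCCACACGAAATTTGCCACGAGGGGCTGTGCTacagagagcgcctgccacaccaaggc

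The last 4 are a member that differed between the genotypes before P5, the 2 members with the smallest adjusted p for a fall from P1 to P3, and a member placed on the genome.
Z00034276-1: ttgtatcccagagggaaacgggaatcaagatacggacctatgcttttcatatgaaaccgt
Z00054753-1: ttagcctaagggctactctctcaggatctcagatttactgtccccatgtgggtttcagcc
Z00036222-1: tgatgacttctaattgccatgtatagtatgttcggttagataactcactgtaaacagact
Z00066401-1: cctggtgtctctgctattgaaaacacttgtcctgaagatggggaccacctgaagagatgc

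The steps of the 150 members ran from 2.07 to 8.90 with a median of 2.45, against a median of 0.10 over all 42006 probes. A step of at least 1 was held by 13% of all probes. Among the members, 12 had a step of at least 4 and 35 a step of at least 3. The label of the set speaks of an onset in adults. By the scanner's detection flag, 21 members were well above background on 0 of the 16 arrays before adulthood, 25 on 1 to 15 of them, and 104 on all 16. For most members, therefore, the step was a higher signal on top of one already present at E17.5 and not a first appearance. Over all probes, with no condition on adult detection, the shares of these classes were 21.6%, 17.2% and 61.1%. Detection throughout was thus common on the array and not particular to the members. All 150 passed the detection condition through their adult arrays.

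Among the 21 members without a detected signal before adulthood, Z00023856-1 had the largest step. Its Cy3 signal at P5 was -4.65 and -5.14 on the WT arrays and -5.03 and -4.88 on the Tabby arrays, in log2 units relative to the array median. In adults it was 3.36 and 2.91 in WT and 3.71 and 3.46 in Tabby. All 4 adult arrays stood far above all 16 earlier ones, which lay at or near the lowest signals the software reports and have no order among themselves, and both adult Tabby arrays lay above both adult WT arrays. Against such values a fold change has only a lower bound. It was computed from Cy3 signals normalized within and between arrays, against the higher of the probe's own value and the lowest signal well above background on each P5 array, and is open to dye bias because no dyes were swapped. By this bound the adult Cy3 signal of Z00023856-1 was at least 12-fold higher than at P5. No bound takes account of a change in the reference signal, which is described below.

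Z00033477-1 read 2.68 and 2.69 in adult WT and 2.92 and 3.17 in adult Tabby, at least 8.70-fold higher than at P5. Z00056349-1 read 1.53 and 1.47 in adult WT and 1.40 and 2.23 in adult Tabby, at least 4.15-fold higher. Z00057299-1 read 0.56 and -0.13 in adult WT and 0.49 and -0.11 in adult Tabby, at least 2.08-fold higher. These 3 also had no P5 array well above background. In adults the genotypes overlapped in Z00056349-1 and Z00057299-1, while in Z00033477-1 both Tabby arrays were the higher. Z00034900-1 and Z00055889-1, next in order, were at least 1.76-fold and 1.56-fold higher in adults. Over the 31 members with 0 of 4 P5 arrays well above background, the bounds ran from 1.11-fold to 12-fold with a median of 1.44-fold, so that for most of them the arrays set only a small minimum.

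The 104 members detected throughout had measured signals on both sides of the step. Z00025474-1, first of all members, read 1.76 and 2.18 in WT and 1.66 and 1.40 in Tabby at P5. In adults it read 10.52 and 11.04 in WT and 10.63 and 10.39 in Tabby, a step of 8.90. The 16 earlier arrays all lay between 0.42 and 2.18, and in adults the genotypes overlapped. Z00025647-1 read 1.98 and 1.84 in WT and 1.80 and 2.19 in Tabby at P5, against 6.52 and 6.72 in WT and 6.98 and 7.01 in Tabby in adults, a step of 4.86. Here both adult Tabby arrays lay above both adult WT arrays, by less than the 0.5 that the choice allowed.

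Z00074790-1 went from 1.38 and 1.31 in WT and 1.24 and 1.31 in Tabby at P5 to 5.61 and 6.04 in WT and 6.14 and 6.12 in Tabby, a step of 4.67. Z00022451-1 went from 3.47 and 3.27 in WT and 3.26 and 3.26 in Tabby to 7.84 and 8.05 in WT and 7.92 and 8.01 in Tabby, a step of 4.64. Z00030389-1 had a step of 4.60, with adult signals from 5.34 to 6.05, and Z00023131-1 a step of 4.44, with adult signals from 4.75 to 5.09. In each of these 4 the lowest adult array stood well above the highest of the 16 earlier arrays.

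Among the 25 members detected on some of the earlier arrays, some were uneven before adulthood. These 25 were dim at P5, with a median Cy3 level of -2.79, and evenness was not compared between the classes. Z00020497-1, whose step was 3.62, had means of -1.62 at E17.5, -1.78 at P1 and -1.27 at P5 but -3.89 at P3, where its 4 arrays read from -4.43 to -3.28. The rule set no condition on P3, and the dip was in both genotypes. In the ratio of footpad to reference used for the tests below, its change from P1 to P3 was only -0.30. In Cy3 it was -2.12, so the depth of the dip depended on the scale. Z00027138-1, with a step of 3.49, read -0.20 on the first Tabby array of P3 and at most -2.68 on the other 15 earlier arrays. Its P5 signals were all at background, and the adult signal was at least 1.67-fold higher. That single P3 array was its only detected signal before adulthood and exceeded all 4 of its adult arrays, which read from -0.53 to -0.38. Its Cy5 signal on the same array was 0.04, and on its P3 partner -4.07. Z00024597-1 differed most between adult arrays, at -0.69 and 0.45 in WT and 1.34 and -0.64 in Tabby, with the largest SD of any member over the adult arrays, 0.97. Its step of 3.39 also rested on P5 signals at background, and the bound was at least 2.08-fold. Z00038107-1, with a step of 3.12, was likewise undetected at P5 and at least 1.46-fold higher in adults. The steps of Z00030579-1 and Z00031341-1 were 3.12 and 2.85.

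Across all members, the 4 adult arrays lay above the 4 P5 arrays in 150 of 150, where the background was 28.8% of all probes, and this separation follows from the choice. They lay above the 4 P3 arrays, which the rule did not use but which lie between stages it held close, in 149 of 150, with a background of 28.6%. Above all 16 earlier arrays stood 148 members, against 16.6% of all probes. Apart from those of P3 these arrays entered the rule, so this count too follows largely from the choice. The exceptions were Z00027138-1, through its P3 array, and Z00024361-1, whose first adult Tabby array read -1.93 while the E17.5 arrays read from -2.55 to -1.81.

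Taken against E17.5 the adult difference of the members had a median of 2.73, and against P1 and P3 it was 2.42 and 2.69. The smallest adult difference among members was 0.75 against E17.5, 1.12 against P1 and 1.59 against P3. Before adulthood the 4 stage means of a member spanned 0.79 in the median and at most 2.63, and 43 members spanned at least 1. The lowest of the 4 earlier means fell at P3 in 52 members, at E17.5 in 50, at P5 in 33 and at P1 in 15. Among the 104 members detected throughout, where these values have an order, it fell at E17.5 in 40, at P3 in 34, at P5 in 19 and at P1 in 11. So the stages before the step were close by choice, but not flat. The rule left P3 free and ranked by a difference from P5, so the choice bears on which stage was lowest. Nothing is read from that order.

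The median member signal was between 0.22 and 0.35 on the 4 arrays of E17.5, between 0.07 and 0.24 at P1, between -0.20 and 0.13 at P3 and between -0.27 and 0.32 at P5. On the adult arrays it was 2.33 and 2.80 in WT and 2.56 and 2.92 in Tabby, with no overlap with any earlier array. Over the 4 adult arrays the SD of a member had a median of 0.25, and at P5 it was 0.21, against a smallest step of 2.07. The members were chosen by the size of this step and by the closeness of E17.5, P1 and P5. The gap between the medians and the size of the step beside the SD therefore follow from the choice.

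Computed in each genotype alone, the step had a median of 2.48 in WT, with a range from 1.84 to 8.81, and a median of 2.45 in Tabby, with a range from 1.83 to 8.98. Both adult arrays lay above both P5 arrays in 150 of 150 members in WT and in Tabby. The background for that was 40.9% and 40.2% of all probes. The filters on genotype at P5 and in adults hold the 2 steps of a member within 1 of each other, so their likeness is part of the choice. Without those filters, 70 of the 150 members would have stayed among the 150 largest steps.

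The reference channel was not part of the rule, and per the labels its RNA was the same on all arrays. Its Cy5 signal was nevertheless higher on the adult slide than on the P5 slide for many members. The Cy5 step had a median of 0.46 over the 150 members and 0.01 over all probes. It was at least 0.5 in 73 members, or 48.7%, against 8% of all probes, and at least 1 in 39 members, or 26%, against 1.76%. A Cy5 step of -0.5 or below was found in 0 members and in 4.59% of all probes. Over all probes the Cy3 and Cy5 steps had a Pearson correlation of 0.50, so ranking by the Cy3 step bears on the Cy5 step as well. The shares over other probes, here and below, are not matched for the Cy3 step.

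The largest Cy5 step was that of Z00025474-1, the member with the largest Cy3 step. Its Cy5 signal was -2.05, -1.69, -2.43 and -1.74 on the 4 P5 arrays and 3.86, 4.14, 3.95 and 3.72 on the 4 adult arrays, a step of 5.89. The ratio of footpad to reference, from the same processed signals, was therefore higher by 3.0 and not by 8.90. Z00025647-1 had a Cy5 step of 2.95, and both of these were well above background in Cy5 on all 8 arrays. Z00023856-1 had a Cy5 step of 3.44, Z00023131-1 of 2.76 and Z00033477-1 of 1.95, but these 3 were well above background in Cy5 on 0 of the 4 P5 arrays, so their P5 values are signals at background. In adults the first 2 of them were well above it on 4 arrays and Z00033477-1 on 2. In all 5 the reference channel was higher on each of the 4 adult arrays than on each of the 4 P5 arrays. The fold bounds given above for Z00023856-1 and Z00033477-1 are of the Cy3 signal and take no account of this rise.

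Other members of the same rank had a flat reference. The Cy5 step was 0.02 in Z00074790-1, -0.23 in Z00022451-1 and -0.05 in Z00030389-1, all well above background in Cy5 on all 8 arrays, beside Cy3 steps from 4.60 to 4.67. For Z00022451-1 the Cy5 signal lay between 8.52 and 8.58 at P5 and between 8.29 and 8.39 in adults. A Cy5 step under 0.25 in size was found in 52 members, against 65.8% of all probes, and the median Cy3 step of those 52 was 2.33. Of the 52, 46 were well above background in Cy5 on all 8 arrays.

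The Cy5 step was also raised among members with a detected reference signal. Among the 102 members well above background in Cy5 on all 8 arrays of P5 and adults, the median Cy5 step was 0.26, and 43 had a step of at least 0.5. Among the 24134 probes well above background in both dyes on those 8 arrays the share with such a step was 2.70%. By the Cy3 brightness of the adult spots, the 50 brightest members had a median Cy5 step of 1.23, the middle 50 of 0.25 and the dimmest 50 of 0.40. With an adult Cy3 signal of at least 4, 41 of 62 members had a Cy5 step of at least 0.5, against 3.99% of the 9482 other probes that bright. Across the 150 members, which share their arrays, the Cy3 and Cy5 steps had a Pearson correlation of 0.48, and across all probes of 0.50.

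The step of the ratio, Cy3 minus Cy5, ran from 0.21 to 5.80 over the members with a median of 2.07. It was at least 1 in 134 members and at least 2 in 84. Every member thus had a higher ratio of reported signals in adults, dim signals included, by an amount that for many was smaller than its Cy3 step. The Cy3 step, on which the members were ranked, is part of this ratio. The choice therefore bears on the sign of its step and on these counts. With both channels corrected and adjusted by loess, the median step of the ratio was 1.30, and 42 of the 150 members would have been among the 150 chosen. The part of the Cy5 rise in the Cy3 step was not tested, and slide, scan day and stage cannot be told apart.

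The reference also differed between E17.5 and the later slides. Its signal changed by at least 1 between E17.5 and P1 in 24.3% of all probes and in 56 members, against 1.25% and 2 members between P1 and P3. Footpad to reference ratios at E17.5 were for that reason compared only within the slide, between genotypes.

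The rule compared the genotypes only at P5 and in adults, and the members were tested for a genotype difference before P5. Its filters also left out probes with a lasting genotype difference, so the choice bears on these counts too. The test was limma's moderated test of the log2 ratio of footpad to reference in 1 fit of all 20 arrays, with Benjamini-Hochberg adjustment over 32121 probes. In these tests 0 of 150 members were called at E17.5, at P1 or at P3 at an adjusted p under 0.05. The background was 0.0125%, 0.0342% and 0.237% of probes called, so low that 0 calls among 150 members tell little. At an unadjusted p under 0.05 there were 34 members at E17.5, or 22.7%, 9 at P1 and 9 at P3, or 6% each, against 11.5%, 4.27% and 9.40% of all probes tested. The members' median difference, Tabby minus WT, was -0.06 at E17.5, -0.01 at P1 and 0.05 at P3, beside -0.04, 0.00 and 0.00 over all probes tested. For the change of the genotype difference over these 3 stages, 0 members were called, with a background of 0.0218%, and 14 had an unadjusted p under 0.05, or 9.33%, against 5.21% of all probes.

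The E17.5 counts changed with the Tabby arrays of that stage. Their 2 replicates differed over the members with an SD of 0.61, against 0.13 in WT E17.5 and 0.13 to 0.34 in all other groups. Without the first Tabby replicate of E17.5, limma called 60 members at that stage, 41 lower and 19 higher in Tabby, among 8195 of 32092 probes. That is 40% of the members and 25.5% of the probes. It then called 49 members for the change over stages, or 32.7% against 17.1% of probes, and 37 for the mean of the 3 stages, or 24.7% against 15.6%, while without the second replicate the counts were 0, 0 and 2. The single array that remained was in each case assumed to vary like the other groups. At P3 the count of members moved from 0 to 14 with array weights, or 9.33%, and to 7 with the scanner's processed signals, or 4.67%. The probes called were then 10.1% and 1.92%.

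Averaged over E17.5, P1 and P3, 1 member was called, with a background of 0.355%. Z00034276-1 was lower in Tabby by a log2 ratio of -0.50 ± 0.07 (SE, 6 arrays against 6, limma adjusted p = 0.00831). Its ratio was -1.35 and -1.22 in WT and -1.65 and -1.44 in Tabby at E17.5, and -0.27 and -0.47 in WT and -1.11 and -1.09 in Tabby at P1. At P3 it was -0.62 and -0.57 in WT and -1.14 and -1.06 in Tabby. Both Tabby arrays lay below both WT arrays at each of the 3 stages. On the Cy3 scale the difference was -0.43 at P5 and -0.48 in adults, just inside the 0.5 that the choice allowed, and the Cy5 step of this probe was -0.01. Leaving out single arrays gave differences from -0.53 to -0.46 and adjusted p-values from 0.00125 to 0.0427. With scale normalization between arrays the call was lost at an adjusted p of 0.387.

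Between P1 and P3, with both genotypes together, 29 members changed at an adjusted p under 0.05 (limma), or 19.3%, where the background was 30.1% of all probes tested. Of the members 26 were lower at P3, or 17.3%, with a background of 13.9%, and 3 were higher, or 2%, with a background of 16.1%. The rule uses the P1 and P5 arrays and ranks by a difference from P5, so the choice bears on the direction of a change after P1, and nothing is read from the split. The median over all 150 was -0.10, against 0.00 over the 32121 probes.

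Z00054753-1 had the smallest adjusted p. Its ratio was 0.99 and 1.37 in WT and 1.07 and 1.12 in Tabby at P1, and 0.07 and 0.06 in WT and 0.45 and 0.48 in Tabby at P3, a fall by 0.87 ± 0.10 (SE, limma adjusted p = 3.081e-05). It stood at 0.57 and 0.61 in WT and 0.92 and 0.91 in Tabby at P5 and between 2.46 and 2.64 in adults, so P3 was the lowest of its 4 postnatal stages. Z00036222-1 read 0.92 and 0.86 in WT and 0.42 and 0.69 in Tabby at P1, and -0.38 and -0.27 in WT and 0.06 and -0.40 in Tabby at P3, a fall by 0.97 ± 0.11 (limma adjusted p = 3.224e-05). At P5 it remained near that level, from -0.34 to 0.07, before its adult values of 1.68 to 2.12. In the ratio Z00035127-1 fell by 0.64 and Z00075674-1 by 0.58, and the 4 P3 arrays of both lay below their 4 P1 arrays. For Z00035127-1 Cy3 changed by -0.417, with overlap between the stages, while Cy5 changed by 0.324. For Z00075674-1 the changes were -0.706 and -0.058, and the stages lay apart in Cy3 too.

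The next counts describe the 26 members that fell, which were picked on this contrast, and nothing is read from them. Over the 26, the ratio differed by a median of -0.51, the Cy3 signal by -0.72 and the Cy5 signal by -0.06. Cy5 was lower at P3 in 18 of the 26, against 56.1% of all probes. In Cy3 all 4 P3 arrays lay below all 4 P1 arrays in 22 of the 26, with a background of 10.1% of all probes. Of the 26, 25 were detected on all 16 earlier arrays, 24 were also lower in Cy3 at P5 than at P1, and 11 had an adult Cy5 step of at least 0.5. The 3 members higher at P3 were Z00064406-1, Z00021837-1 and Z00000953-1, by 0.22, 0.23 and 0.27, with adjusted p-values of 0.0459 to 0.0462 (limma). All 3 calls were lost with the replicate number as a block, with no filter on dim probes, with scale normalization and without several single arrays, where adjusted p-values reached 0.167, 0.202 and 0.157.

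These counts depended on single arrays and on the scale. Without either Tabby E17.5 array 45 members were called, with a background of 37%. Without the second WT array of P1, or the first Tabby array of P3, 17 were. Without the first Tabby array of P1 or the second WT array of P3 there were 18, and without the first WT array of P3 there were 19, with backgrounds from 22.5% to 23.9%. In Cy3 alone 58 members were called, or 38.7% against 31.4% of probes. Of these 47 were lower, or 31.3% against 14.1%. With scale normalization between arrays it was 15, or 10% against 16.5%.

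Of the members, 2 overlap each other. Z00043331-1 and Z00075743-1 share 34 bases, and their Cy3 steps were 3.02 and 3.01. Z00043331-1 read from 3.98 to 4.17 at P5 and from 6.73 to 7.38 in adults, and Z00075743-1 from 4.28 to 4.42 and from 7.05 to 7.49. Both had a raised reference, with Cy5 steps of 2.31 and 1.81, and both fell from P1 to P3, by 0.69 and 0.75 (limma adjusted p = 0.0209 and 0.0172). Both calls were lost when the second WT or first Tabby array of P1, or the first WT or first Tabby array of P3, was left out, with adjusted p up to 0.0742 and 0.0578, and with scale normalization (0.296 and 0.342). The call of Z00043331-1 was also lost without the second WT array of P3 and with processed signals. The 2 probes are not independent, as they can bind the same transcript. In all, 7 members shared 30 bases or more with another probe of the array, or 4.67%, against 4.65% of all probes.

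In base composition the members were close to the array. Their GC content had a median of 45% and a range from 18.3% to 76.7%, against a median of 43.3% over all probes. A GC content of at least 60% was found in 12 members, or 8%, against 4.64%. It was also 45% in the median for members with a Cy5 step of at least 1 and 44.2% for those with a Cy5 step under 0.25 in size. A reading frame without a stop codon on the probe's own strand was found in 128 members, or 85.3%, against 83.4% of all probes. The motif AATAAA, the common signal for adding a poly(A) tail, was searched on the probe's strand only and stood in 8 members, or 5.33%, against 6.93%.

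Sequence was compared on both strands with windows from 250 bases before to 50 bases after 32851 gene starts of RefSeq (build GRCm38.p6). A run of at least 40 shared bases was found for 3 members, or 2%, against 1.03% of all probes. All 60 bases of Z00066401-1 lie at chr14:21741632-21741691, inside the span of Dusp13 (chr14:21733395-21748651), a gene of a dual-specificity phosphatase, and between 193 and 134 bases before one of its starts. The probe has the strand opposite to the gene, and whether it lies in an exon or an intron was not determined here. It was not well above background on any of the 16 earlier arrays, read -1.38 and -0.90 in adult WT and -0.80 and -0.49 in adult Tabby, and was at least 1.44-fold higher in adults than at P5, beside a Cy5 step of -0.05.

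Z00065658-1 shared 58 bases with the start of Arl6 (chr16:59639290-59639347, on the gene's strand), which encodes a small GTPase of the primary cilium. Its step was 2.28, with a Cy5 step of 0.89. Z00060979-1 shared 41 or 42 bases with the starts of 3 neighbouring genes on chromosome 7, Krtap5-5, Gm29735 and Gm39115. Krtap5-5 belongs to the keratin-associated proteins, cross-linkers of the hair keratins. The step of this probe was 2.20 with a Cy5 step of 0.52, and signals from near-identical members of that family cannot be parted by 1 probe. These matches place Z00066401-1 and Z00065658-1 at 1 window each, while Z00060979-1 has no single place.

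At the lower edge of the set, the members Z00071433-1, Z00025725-1 and Z00000953-1 had steps of 2.08, 2.07 and 2.07, and the next probes, Z00012073-1, Z00062656-1 and Z00037631-1, had 2.07, 2.07 and 2.06. The steps on either side of the edge differed by less than the spread between arrays.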

How the data were processed

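The deposited array files give, per the file headers, the mean spot signal and the processed signal of each dye as an intensity (Agilent Feature Extraction 9.5.1.1), and their log10 ratio, with the reference in the numerator. A deposited value table holds 25030 probes on the log10 scale with no stated direction or centring. Its column medians were 2.57 to 2.59 before adulthood and 2.53 in adults. Set against the array files, it followed footpad over reference plus a constant per probe for most probes, but not for all. The difference had a median SD of 0.000103 in log2 over the arrays, and the SD was under 0.01 in 64.6% of its probes. What sets that constant, and why the other probes departed from it, stays unknown. It held 94 members and served as an alternative.

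Members were chosen by their rule on log2 processed Cy3 signal. For tests, both channels were corrected by normexp (offset 50) and adjusted by loess within arrays, with control spots left out, and the log2 ratio was fitted with 10 group means over 20 arrays (limma 3.58.1 in R 4.3.3). Probes well above background in Cy3 on at least 2 arrays were tested, which gave 32121, with 10 residual degrees of freedom. Adjusted p-values are Benjamini-Hochberg, two-sided, with a threshold of 0.05. P-values measure the spread between replicates labelled as biological. On simulated data for Tabby minus WT at P3 with 200 of 32121 probes changed, the fit called 53.5% of changes of 1.5-fold, 90% of those of 2-fold and 99.5% of those of 4-fold, with 3 to 14 false calls. The simulated noise of a probe had the same spread in all groups. In the data the SD of the difference between replicates ran from 0.114 in WT P3 to 0.425 in Tabby E17.5. These rates therefore need not hold for the data. The number of arrays limits the precision.

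Named probes are the 6 with the largest step in each detection class, those called between genotypes, those at the edge, and overlapping ones; those called between P1 and P3 and those matched to the genome were chosen after their values were seen. Gene lists were not used, because probes carry no gene names. Members and lists were chosen with earlier results of these data known. Sequences come from the array files, and gene starts from RefSeq.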

Additional observations from a re-analysis of the deposited data

How the results depend on the processing

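The median Cy3 step of the members, 2.45, was 1.30 as a loess-adjusted ratio and 1.78 from mean signals without background subtraction, and 2.41 to 2.50 when single arrays were left out. Of the 150 members, 42 remained with the ratio in place of Cy3, 70 without the genotype filter, 59 with stage filters at 0.5, and 115 to 148 when single arrays were left out. Members called between P1 and P3 (29 as reported) numbered 46 with processed signals, 58 in Cy3 alone, 59 in Cy3 alone with the 75th percentile, 15 with scale normalization, 48 with these stages fitted alone, 45 with array weights, and 17 to 45 without single arrays. Members called for genotype at P1 (0) were 2 in Cy3 alone (1.33% against 0.224%), 2 in Cy3 alone with the 75th percentile (1.33% against 0.246%) and 1 in the value table (1.06% against 0.576%). At P3 (0) they were 7 with processed signals (4.67% against 1.92%), 4 in Cy3 alone (2.67% against 0.834%) and 5 in Cy3 alone with the 75th percentile (3.33% against 0.943%). There were 2 in the value table (2.13% against 1.46%), 3 fitted alone (2% against 0.978%) and 14 with array weights (9.33% against 10.1%). For the mean of 3 stages (1) they were 7, 3, 4 and 3 in the first 4 of these, 0 with scale normalization and 1 to 37 without single arrays. At E17.5 (0) and for the change over stages (0) they were 0 to 60 and 0 to 49 without single arrays. The causes were not tested.

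Replicate numbers did not pair the samples: deviations of same-numbered arrays correlated from -0.07 to 0.22 by stage. With the replicate number as a block, 24 members were called between P1 and P3, or 16%, against 30.1% of all probes. For the mean genotype difference 1 was called, or 0.667% against 0.308%. In the other 4 comparisons 0 were called, with backgrounds from 0.0187% to 0.221%. Background limits the 31 members undetected at P5, whose steps rest on signals at background. For these only lower fold bounds of the Cy3 signal can be given, which take no account of a rise in the reference signal.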

Other observations

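Of the probes that share 30 bases or more with a member, 6 were not members themselves, and all 6 had a higher Cy3 signal in adults than at P5, with steps from 1.38 to 2.50. Z00058983-1 (step 2.42, sharing 49 bases with Z00025998-1) missed the condition on P1 and E17.5. Z00041156-1 (2.50, 40 bases with Z00059773-1) and Z00034906-1 (1.71, 59 bases with Z00063991-1) missed the one on genotype at P5, with Tabby minus WT differences of 0.52 and 0.53. Z00059596-1 (1.90, 45 bases with Z00019820-1) was lower in Tabby by a difference of -0.70 at P5 and -0.52 in adults. Z00074504-1 (1.71, 58 bases with Z00022990-1) and Z00064830-1 (1.38, 59 bases with Z00063991-1) met every condition but had steps too small for the 150. The Cy5 steps of Z00059773-1 and its partner were 1.68 and 1.94, and those of Z00063991-1 and its 2 partners were -0.03, -0.01 and -0.10.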
